A study of Arabidopsis thaliana with 4 samples.

Results

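Vesicle and membrane trafficking genes were followed in wild-type Arabidopsis (WT) and in the vip3 mutant. They were chosen by name, with earlier results of these data known. The rule took every probe set whose single gene symbol in the platform annotation begins with SEC, VPS, PRA, EXO70, SYP, VAMP, RAB or SNX. A digit, or a letter and a digit, had to follow. This gave 33 genes, each read by 1 probe set, of 13355 loci with a named probe set of their own. No EXO70, SYP, VAMP or SNX gene was among them, and RAB6A was the only Rab GTPase gene, so that the 33 genes sampled mainly the exocyst, the PRA1 family and the ESCRT machinery. Another 3 probe sets carried several symbols of which at least 1 fits the rule, and were left out.

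RNA came from the total aerial tissue of soil-grown plants that were 14 d old and was measured on 4 Affymetrix ATH1 arrays, 2 for each genotype. The vip3 plants are described in the study's methods as carrying vip3-1, which the study treats as a null allele of the gene for a WD-repeat protein of the plant Paf1 complex (Paf1C), which travels with RNA polymerase II along transcribed genes. The labels give no treatment for either genotype, and they do not name the wild-type strain. Every replicate combined 3 independently derived samples with more than 100 plants in each, so replicate error here means the spread between such pools and not between plants.

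Trafficking proteins carry membrane and cargo between the endoplasmic reticulum (ER), the Golgi, endosomes, the vacuole and the plasma membrane. Rab GTPases mark membranes and recruit tethers, tethers such as the exocyst hold a vesicle at its target, and SNARE proteins, helped by Sec1/Munc18 (SM) proteins, fuse it. PRA1 proteins (prenylated Rab acceptors) are small membrane proteins that bind prenylated Rabs. ESCRT complexes, first worked out in yeast, bud vesicles into late endosomes and so send ubiquitinated membrane proteins to the vacuole; in plants this route also turns over carriers and receptors of the plasma membrane.

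The values are signal intensities in arbitrary units, scaled to a common mean on every array (a mean of 500 after the lowest and highest 2% of probe sets were removed), and a signal of 1 gene cannot be set against that of another. Across the 22746 probe sets tested, the WT arrays correlated at r = 0.953, the vip3 arrays at r = 0.95 and arrays of different genotypes at 0.941 to 0.946 on the log2 scale, which describes probe sets and not replicates. Leaf markers bore out the labelled tissue: the 4 photosynthesis genes RCA, PSAE-1, LHCB4.2 and LHCB4.1 had signals from 16687 to 24728 on all arrays. Of 5 listed root markers 3 were measured, and their summed signal was 4868 and 5788 in WT against 2741 and 3327 in vip3. That difference lay in PYK10, which fell (log2 fold change -0.82, limma adjusted p = 0.0062). EXPA7 and EXPA18 had low signals, from 27.2 to 57.5 and from 9.1 to 71.6, and overlapped between the genotypes. Of the 64 control probe sets, 29 lay higher on both vip3 arrays than on both WT arrays and 1 lay lower. A 25S ribosomal RNA control was among the 29, at 223.5 and 320.9 in vip3 against 148 and 137.6 in WT. The part that root tissue or the higher controls had in the results on trafficking genes was not tested.

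Transcripts of trafficking genes changed in both directions in vip3, and by little. The ESCRT-III genes VPS2.2, VPS2.1 and VPS24.1 rose to 1.51, 1.47 and 1.27 times WT. The PRA1 genes PRA1.B6 and PRA8, the exocyst gene SEC10, the SNARE gene SEC22 and the plastid translocase gene SECE1 fell to 0.512, 0.731, 0.766, 0.793 and 0.786 of WT. These 8 of 33 genes had a limma adjusted p under 0.05, where 9.8% of all probe sets did. By direction, 3 rose and 5 fell, beside 4.73% and 5.07% of all probe sets. In aerial tissue measured in bulk, fewer cells of a type and less RNA per cell cannot be told apart.

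The genes were brighter than most features of the array, which bears on that share. Of the 33 genes 29 lay among the 60% brightest probe sets, those with a mean signal above 93.0, and all 8 called genes were among these 29 (27.6%). Of all the 60% brightest probe sets, 15.7% were called, 7.46% as higher and 8.22% as lower. The 4 dim genes were PRA1.G1, PRA1.G2, SEC1B and VPS24.2, and none of them was called. The median log2 fold change over the 33 genes was -0.13, against 0.0012 over all probe sets and -0.012 over the 60% brightest. Every vip3 array lay above every WT array for 6 genes and below for 14, which together is 60.6% of the genes beside 52.2% of all probe sets (25.9% above and 26.3% below). Among the 60% brightest it was 19 of 29 genes (65.5%) beside 62.9% of probe sets, so the share without overlap, both directions together, was near that of the array. Of the 29 genes 5 lay above and 14 below, beside 4100 and 4489 of the 13648 brightest probe sets. Whether the directions differ from the array was not tested. At the cutoffs named in the study's methods, a 2-fold change or more and p below 0.001, none of the 33 was called, beside 1.56% of all probe sets. The methods do not say whether that p was adjusted, and the limma p was left unadjusted here. Without the fold threshold there were 4 genes, beside 5.35% of all probe sets and 8.68% of the 60% brightest. At an unadjusted p under 0.05 alone there were 14 genes, beside 23.7% and 34.5%.

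**Figure D1:**
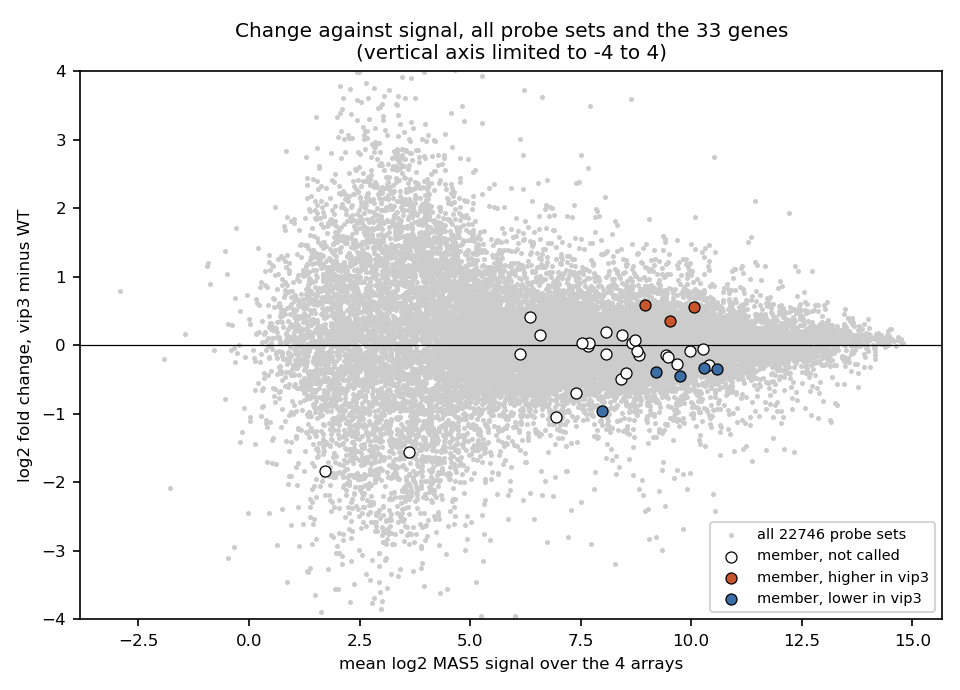
Change between genotypes (vertical axis, log2 fold change, vip3 minus WT) against mean log2 signal over the 4 arrays (horizontal axis) for the 22746 probe sets tested (grey) and the 33 trafficking genes (circles, filled where the adjusted p was under 0.05). Called genes lie in the bright part of the range, and 27 probe sets outside the vertical axis are not drawn.

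The ESCRT genes held all 3 of the rises. VPS2.2 and VPS2.1 encode the ESCRT-III subunit that in yeast recruits the ATPase that takes the filament on the endosome apart. VPS2.2 read 397.6 and 417.3 on the WT arrays and 596.5 and 632.7 on the vip3 arrays. It was well above WT on both vip3 arrays and rose by 0.59 ± 0.10 SE on the log2 scale (limma adjusted p = 0.0096). VPS2.1 had 834.2 and 921.5 in WT against 1375.8 and 1208.1 in vip3, again without overlap (0.56 ± 0.09 SE, adjusted p = 0.011). VPS24.1, whose yeast counterpart works together with VPS2 in the filament, had 650.1 and 656.3 in WT against 833.9 and 831.6 in vip3. Its replicates were almost equal within each genotype, and it rose by 0.35 ± 0.08 SE on the log2 scale (limma adjusted p = 0.033).

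The other 6 ESCRT genes did not pass. VPS22, a subunit of ESCRT-II, the complex that starts ESCRT-III assembly, was placed the other way, with 368 and 443 in WT against 307.4 and 266.5 in vip3. The genotypes did not overlap (log2 fold change -0.50, 95% interval -0.83 to -0.17), but its limma adjusted p was 0.072. VPS20.1, which links ESCRT-II to ESCRT-III, varied as much within genotypes as between them, with 539.8 and 414.7 in WT against 503 and 361.6 in vip3. VPS46.2, also called CHMP1A, which acts in the sorting of auxin carriers, was narrowly bounded around no change, with 1255.8 and 1282.6 in WT against 1181.8 and 1250.9 in vip3 (log2 fold change -0.06, 95% interval -0.23 to 0.11). The ESCRT-III-related VPS60.1 and VPS60.2 had log2 fold changes of 0.14 and 0.19, both with vip3 arrays above WT and intervals that included 0. VPS24.2, the relative of VPS24.1, had signals of 1.8 and 21.7 in WT against 1.1 and 2.8 in vip3, close to the lowest signals of the arrays, and no direction can be read from it (interval -5.17 to 1.51). Over the 9 ESCRT genes the median log2 fold change was 0.14, and 3 rose and 0 fell. This is 33.3% called, beside 9.8% of all probe sets and 15.7% of the 60% brightest, which held 8 of the 9 genes. As higher alone, 4.73% of all probe sets and 7.46% of the brightest were called. Whether the ESCRT share differs from these was not tested.

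**Figure D2:**
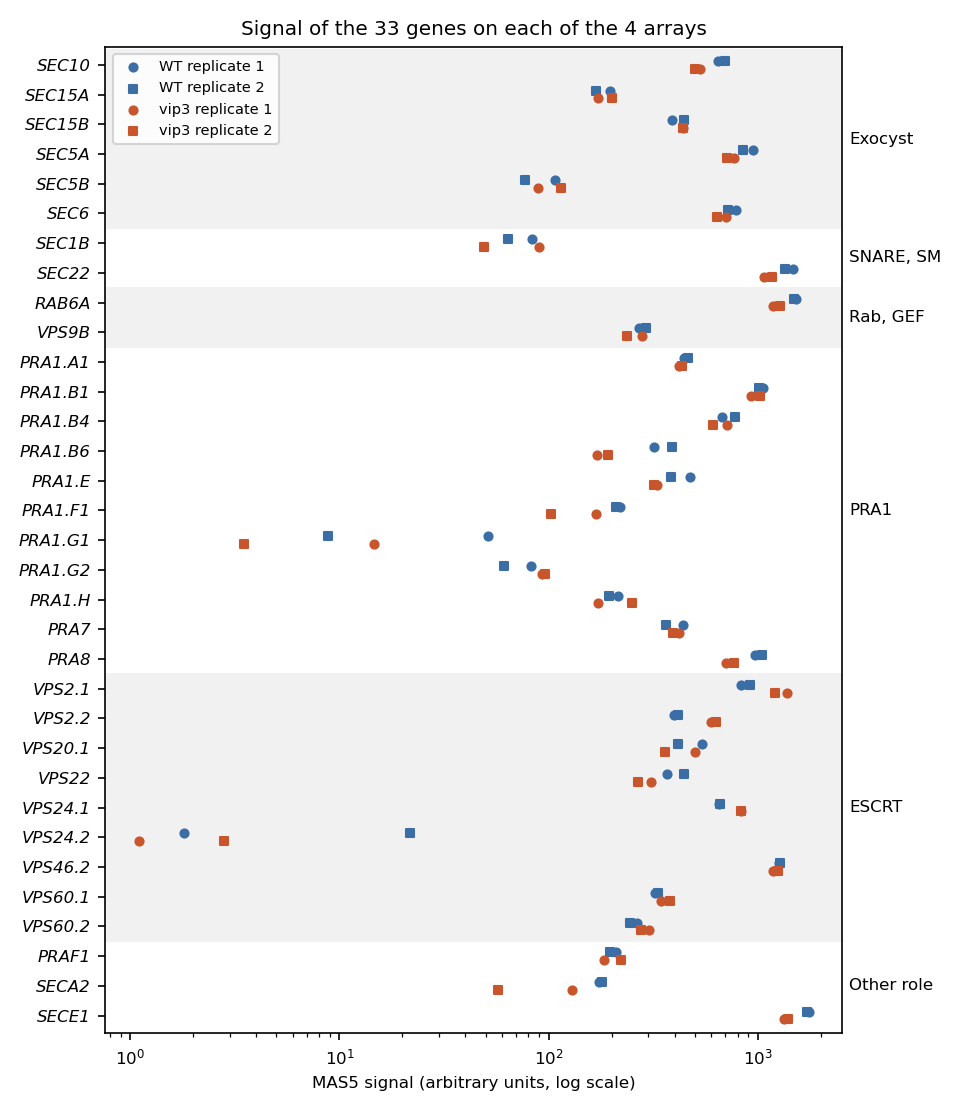
MAS5 signal (horizontal axis, arbitrary units, log scale) of each of the 33 trafficking genes on the 4 arrays, with circles and squares for replicates 1 and 2, blue for WT and orange for vip3, grouped by the machinery the protein belongs to. The vip3 points of VPS2.1, VPS2.2 and VPS24.1 lie to the right of the WT points and those of PRA1.B6 and PRA8 to the left, while PRA1.G1 and VPS24.2 scatter at very low signal.

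Of the 11 PRA1 genes 2 fell and 0 rose, with a median log2 fold change of -0.14. This is 18.2% called, and 9 of the 11 genes lay among the 60% brightest probe sets. Of those probe sets 15.7% were called in either direction and 8.22% as lower. PRA1.B6 showed the largest change of any called gene of the 33, from 320 and 390.4 in WT to 170.9 and 191.9 in vip3. The highest vip3 signal was far below the lowest WT signal (log2 fold change -0.96 ± 0.16 SE, limma adjusted p = 0.01). Its relatives in the same subgroup, PRA1.B1 and PRA1.B4, overlapped between the genotypes. PRA1.B1 had 1052.6 and 1018.2 in WT against 927.1 and 1022 in vip3, and PRA1.B4 had 673.9 and 779.3 in WT against 710.1 and 610.5 in vip3. Their log2 fold changes had 95% intervals of -0.28 to 0.10 and -0.40 to 0.12, where that of PRA1.B6 was -1.34 to -0.59; the differences between genes were not tested.

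PRA8, also named PRA1.F3, had 969.7 and 1050.2 in WT against 708 and 768.9 in vip3. The genotypes were clearly apart, and it fell by 0.45 ± 0.09 SE on the log2 scale (limma adjusted p = 0.018). PRA1.F1, of the same subgroup, had 218.3 and 209.2 in WT against 168.5 and 102.4 in vip3. The vip3 arrays lay below WT but far from each other, and it did not pass (log2 fold change -0.70 ± 0.26 SE, adjusted p = 0.15). PRA7, or PRA1.F2, the remaining gene of that subgroup with a named probe set, overlapped, with 437.6 and 363.5 in WT against 417.7 and 394.5 in vip3. PRA1.E had 472.3 and 385.7 in WT against 329.1 and 317.6 in vip3, a separation that did not pass (-0.40 ± 0.13 SE, limma adjusted p = 0.11). PRA1.A1 and PRA1.H had log2 fold changes of -0.09 and 0.03, with intervals of -0.32 to 0.14 and -0.47 to 0.52. PRA1.G1 scattered from 3.5 to 51.2 with overlap, and PRA1.G2 had 82.2 and 61.5 in WT against 92.8 and 96.2 in vip3 (interval -0.34 to 1.16).

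Among the 6 genes of the exocyst, the complex that tethers secretory vesicles to the plasma membrane, SEC10 fell and none rose. This is 16.7% called, where 15.7% of the 60% brightest probe sets were called in either direction and 8.22% as lower. SEC10 had 647.4 and 698.2 in WT against 528.5 and 501.4 in vip3, with a clear gap between the genotypes (log2 fold change -0.39 ± 0.09 SE, limma adjusted p = 0.041). SEC5A had 948.9 and 845.7 in WT against 766.1 and 715.8 in vip3, and SEC6 had 784.9 and 718.9 in WT against 700.9 and 640.3 in vip3. Both were lower on each vip3 array than on each WT array without passing, with log2 fold changes of -0.27 ± 0.09 SE and -0.17 ± 0.09 SE and limma adjusted p-values of 0.11 and 0.34. SEC5B, the relative of SEC5A, and the SEC15A and SEC15B pair overlapped between the genotypes. SEC15A had 197.4 and 167.6 in WT against 171.7 and 200.7 in vip3, and SEC15B had 389.6 and 442.4 in WT against 436.7 and 437.8 in vip3, which leaves intervals of -0.41 to 0.47 and -0.18 to 0.33. SEC5B ranged from 77.5 to 115, and its interval of -0.57 to 0.88 was wide.

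The remaining genes act in vesicle fusion or as Rab GTPases and their regulators. Of these 4 genes 1 passed, beside 9.8% of all probe sets and 15.7% of the 60% brightest. SEC22, a SNARE of ER to Golgi transport, fell from 1477.7 and 1352.2 in WT to 1072.4 and 1172.9 in vip3 (log2 fold change -0.33 ± 0.08 SE, limma adjusted p = 0.048). It was the last gene inside the threshold. RAB6A, a Rab GTPase of the RABH group that acts at the Golgi, stood just outside it, with 1523.8 and 1483.3 in WT against 1181.8 and 1279.9 in vip3 (-0.29 ± 0.08 SE, adjusted p = 0.053). The log2 fold changes of SEC22 and RAB6A differed by less than their errors, so the threshold between them separates no difference in size. VPS9B, a relative of the exchange factor that activates the endosomal Rab5-type GTPases, had 270.3 and 292 in WT against 278.8 and 236.5 in vip3, which overlap. SEC1B, an SM protein of the same family as the cytokinesis protein KEULE, was dim and overlapping, at 83.1 and 63.8 in WT against 90.3 and 49.2 in vip3.

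The name rule also took in 3 genes that are known for other work, and these are kept apart here. SECE1 encodes a subunit of the chloroplast Sec translocase, which inserts proteins into the thylakoid membrane, and had signals of 1748.6 and 1717.2 in WT against 1338 and 1386.3 in vip3. The replicates were close together and the genotypes well apart (log2 fold change -0.35 ± 0.07 SE, limma adjusted p = 0.021). SECA2, which encodes an ATPase of a plastid Sec system, had 173.5 and 180.9 in WT against 129 and 57.2 in vip3. The vip3 arrays lay below WT but far from each other, and it did not pass (-1.04 ± 0.38 SE, limma adjusted p = 0.14). PRAF1, a protein with PH, RCC1 and FYVE domains that is no Rab acceptor, had 210 and 196.3 in WT against 184.3 and 220.8 in vip3. Without these 3 genes, 7 of 30 (23.3%) were called, with 3 higher and 4 lower, beside 9.8% of all probe sets and 15.7% of the 60% brightest.

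**Figure D3:**
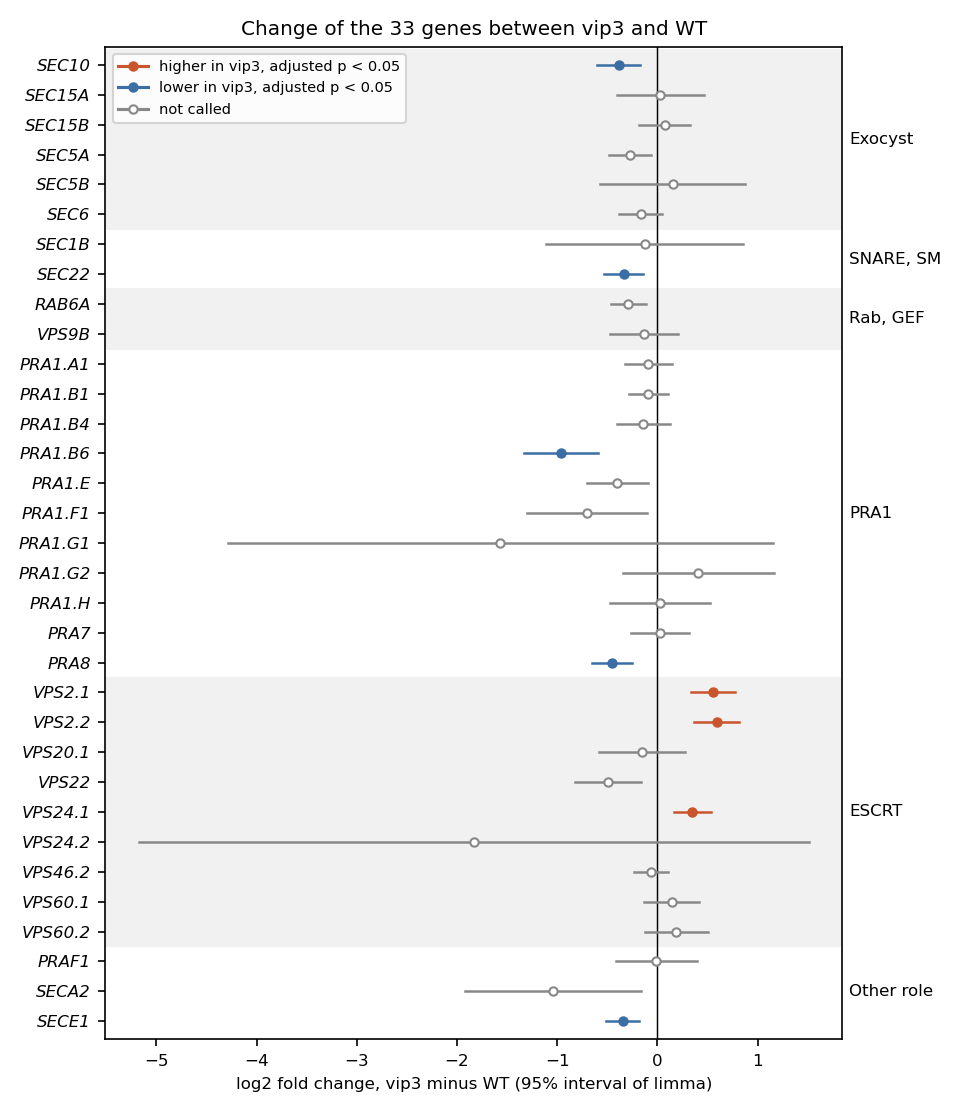
Log2 fold change of each of the 33 genes (horizontal axis, vip3 minus WT) with the 95% interval of limma as a line, grouped as in the plot of signals and filled where the adjusted p was under 0.05. The 3 genes above 0 that passed are VPS2.1, VPS2.2 and VPS24.1, and the widest intervals belong to VPS24.2 and PRA1.G1.

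Other genes of the same routes were read from 6 lists with 312 names, of which 25 genes had a named probe set that was not already counted. Of these 25, 0 rose and 2 fell in limma (8%, beside 9.8% of all probe sets and 15.7% of the 60% brightest, which held 21 of the 25). At an unadjusted p under 0.05 in limma there were 9, beside 23.7% of all probe sets and 34.5% of the 60% brightest. AT1G80910, known as CCZ1b and part of the exchange factor for the Rab7-type GTPases of the vacuole, fell from 320.5 and 346.4 in WT to 217.5 and 217.9 in vip3 (log2 fold change -0.61 ± 0.13 SE, adjusted p = 0.028). Its close relative CCZ1a (AT1G16020) had 373.3 and 355.1 in WT against 267.3 and 297.5 in vip3 and did not pass (limma adjusted p = 0.11). MON1 (AT2G28390), their partner in the exchange factor, had 603.1 and 598.3 in WT against 544.1 and 551.5 in vip3, with a log2 fold change of -0.13 ± 0.09 SE. CLUB, a TRAPPII tether subunit needed for cell plate formation, fell from 580.2 and 533.2 to 424 and 408.8 (-0.42 ± 0.10 SE, limma adjusted p = 0.04).

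Further list members that had no call bear on the same complexes. ELC, an ESCRT-I subunit that binds ubiquitin, had 304.6 and 326.2 in WT against 398.3 and 428.3 in vip3, which did not overlap (log2 fold change 0.39 ± 0.11 SE, limma adjusted p = 0.077). SNF7.1 and SNF7.2, which encode the main filament subunit of ESCRT-III, had log2 fold changes of 0.11 and -0.23 with intervals of -0.18 to 0.41 and -0.50 to 0.04. EXO84B, another exocyst subunit, overlapped between the genotypes, with 642.8 and 585 in WT against 619.2 and 710 in vip3. AP2M (AT5G46630), the medium subunit of the clathrin adaptor of endocytosis, had 1455.9 and 1416.2 in WT against 1752.4 and 1683.1 in vip3 (limma adjusted p = 0.06). ARA6, a plant-specific Rab5-type GTPase, had 1318.3 and 1334.1 in WT against 1526.9 and 1598.8 in vip3 (limma adjusted p = 0.08). ARLA1D, a GTPase related to ARF, had 1555.1 and 1664.8 in WT against 1340.5 and 1018.1 in vip3 (limma adjusted p = 0.063). For each of these 3 the genotypes did not overlap. The same held for 18 of the 25 list genes (72%), beside 52.2% of all probe sets and 62.9% of the 60% brightest. The SNARE genes and SM genes under other names held no call, with log2 fold changes of 0.10 for YKT61, 0.13 for KEU and 0.13 for ATSLY1. ATYKT62, dim at 3.8 to 6.2, was placed the other way (log2 fold change -0.44, interval -2.74 to 1.86).

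A broader reading of the names was chosen after the members were known. It added 10 genes that fit the rule only by a synonym, of which KEU, ARA6, SNF7.1 and SNF7.2 were already in the lists above. None of the 10 passed in limma and 1 (ARA6) had an unadjusted p under 0.05, which makes 8 of 43 called (18.6%). Beside this stand 9.8% of all probe sets and 15.7% of the 60% brightest, which held 37 of the 43. AT5G04920, or VPS36, the partner of VPS22 in ESCRT-II, had 659.7 and 626.2 in WT against 621.6 and 472.7 in vip3 (log2 fold change -0.25, interval -0.56 to 0.07). Of the loci adjacent to the 8 called genes, 2 had a named probe set and 0 of these was called, too few to judge closeness. Over all 33 genes, 4 of 20 such adjacent loci were called. Distances between the called genes were not examined.

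With 2 arrays per genotype, 4 of the 8 calls were lost with any 1 array removed, and each of the other 4 with 2 or 3 of the arrays. VPS2.2 kept an adjusted p under 0.05 in limma without either WT replicate (0.046 and 0.026) but not without vip3 replicate 1 (0.077) or vip3 replicate 2 (0.099). VPS2.1 kept it only without WT replicate 2 (0.018), and PRA1.B6 (0.02) and PRA8 (0.044) only without WT replicate 1. SEC10, SEC22, SECE1 and VPS24.1 lost it with the removal of any 1 array (adjusted p from 0.076 to 0.23 in limma). Directions held throughout: the log2 fold changes ranged from 0.55 to 0.64 for VPS2.2, from 0.46 to 0.65 for VPS2.1, from 0.34 to 0.36 for VPS24.1 and from -1.11 to -0.82 for PRA1.B6. CCZ1b and CLUB also lost their calls when any 1 array was left out and kept their direction. With a prior variance that did not follow the signal, 0 of the 33 genes and 0 of all probe sets had an adjusted p under 0.05, and 7 of the 33 had an unadjusted p under 0.05.

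**Figure D4:**
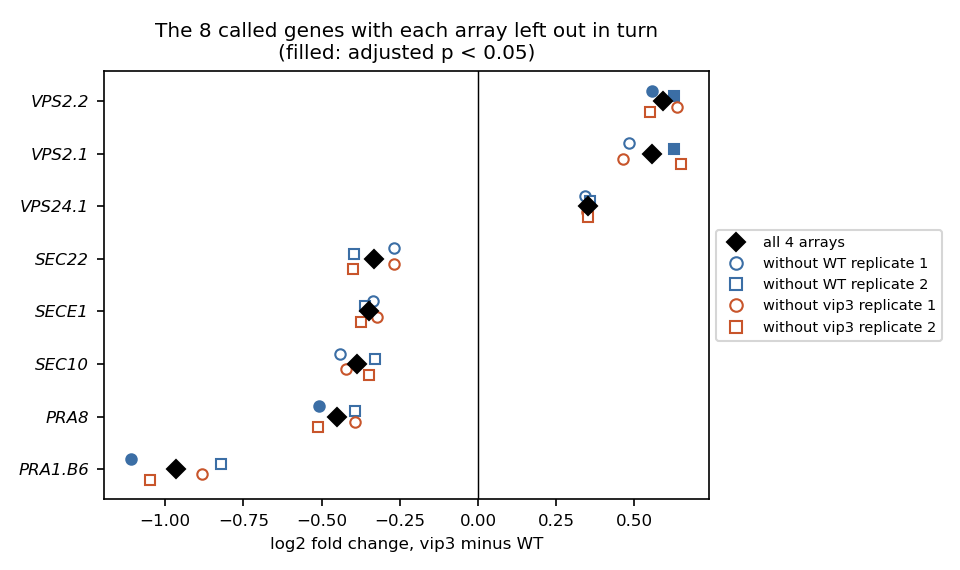
Log2 fold change (horizontal axis, vip3 minus WT) of the 8 called genes with all 4 arrays (black diamonds) and with each array left out in turn (blue for a WT array, orange for a vip3 array, circles and squares for replicates 1 and 2 left out, filled where the adjusted p was under 0.05). Every point stays on the side of its diamond, and 5 of the 32 points with an array left out are filled.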

How the data were processed

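The authors deposited linear signal intensities computed with the MAS5 algorithms, which correct background and mismatch hybridisation and scale each array. Low signals therefore have large relative errors. Neither the GCRMA values behind the study's own calls nor detection calls were used here. The number of arrays limits the precision.

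Control probe sets (64) were left out and 22746 were tested on log2 signal without an offset. The test was that of limma 3.58.1 (R 4.3.3, functions lmFit and eBayes) for the difference vip3 minus WT, with a prior variance that followed the mean signal and Benjamini-Hochberg adjustment across the 22746. An exact permutation of 2 arrays against 2 cannot go below p = 0.333 (two-sided). The script was tested on simulated data. The members, lists and tests were chosen with earlier results of these data known.

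Names came from GEO's platform annotation (13513 of 22810 probe sets had 1 symbol, 503 several and 8794 none), and all 33 genes matched a RefSeq table of TAIR10.1, used for names and gene order only. List names were matched by symbol or synonym, and SLY1 (SLEEPY1) and CHC1 (BAF60) were removed as other genes with the same name. Named in the text are all called members, others with low p or high signal, and the remaining members by group. For anther and seed markers no named probe set was at hand.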

Additional observations from a re-analysis of the deposited data

How the results depend on the processing

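The calls depended on the variance model and on single arrays. Of the 33 genes, 0 were called with a constant prior variance (0 higher and 0 lower, 0 of the other trafficking lists and 0 of all probe sets, with 7, 5 and 3798 at an unadjusted p under 0.05), and 3 with that model after removal of the 40% dimmest probe sets (1 lower, and 1 of the other lists), which is 10.3% of the 29 genes left beside 11.0% of probe sets. Over the removal of each array the number called was from 0 to 3, with 0 to 2 higher and 0 to 2 lower, that of the other lists 0 to 1 and that of all probe sets 442 to 1332. No call among the 33 held without vip3 replicate 1 or without vip3 replicate 2, where the fit had only 1 vip3 array. Over the removal of each array the median log2 fold change of the 33 genes ranged from -0.23 to -0.10. At the cutoffs named in the study's methods 0 were called, from 0 to 1 over the removal of each array (PRA1.B6 without WT replicate 1), and 4 with no fold threshold (5.35% of all probe sets). Fewer falls, 3, were called with log2 of the signal plus 16 and with robust eBayes. The other lists had 1 call with log2 of the signal plus 16, which is 4% beside 7.68% of all probe sets. Without the 40% dimmest probe sets they had 4, which is 19.0% of the 21 genes left beside 19.0% of probe sets. An adjusted p under 0.1 gave 3397 of all probe sets and 10 of the 33. With genes that fit by a synonym, the median was -0.090. All other settings with all arrays kept the number called among the 33 between 6 and 10.

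The replicate block gave 7 of the 33 genes and 2339 probe sets. SEC22 alone lost its call (adjusted p = 0.052), and ARLA1D of the lists gained one (0.039). The deviations of equally numbered arrays had a correlation of -0.044, and the arrays were treated as unpaired.

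Of the 58 genes, 12 changed sign under some setting, and none of these was called. With quantile normalization PRAF1 turned to 0.015. Over the removal of each array, log2 fold changes ranged from -0.39 to 0.088 for VPS20.1, -0.11 to 0.16 for PRA7, -0.25 to 0.30 for PRA1.H, -0.57 to 0.31 for SEC1B, -0.017 to 0.17 for SEC15B, -0.078 to 0.39 for SEC5B, -0.089 to 0.15 for SEC15A, -0.14 to 0.12 for PRAF1, -0.11 to 0.10 for DL1B, -0.36 to 0.18 for ARLA1B, -0.023 to 0.25 for SNF7.1 and -0.042 to 0.090 for ATGRIP. The cause was not tested.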
